A study of Homo sapiens with 6 samples.

Results

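The mitochondrial ribosomal protein genes are described here in A549 cells, a human lung adenocarcinoma cell line, with and without knockdown of STAU1. The members were taken by name: every row of the gene count table marked as protein-coding whose symbol begins with MRPL or MRPS followed by a number, which gave 78 of 30493 listed genes. All 78 had enough reads to enter the test across 17089 genes. The rule used no measured value. A further 20 rows carry such a symbol but are antisense RNAs, divergent transcripts or pseudogenes, and they were not members. Poly(A) RNA was sequenced from 3 libraries whose genotype label is a control plasmid and 3 libraries labelled as STAU1 knockdown, all from A549. The names of the knockdown columns begin with si, and the sources used here do not give the reagent. Whether replicates within a group are independent cultures is not stated, so the p-values reflect library-to-library spread that could be technical only.

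The mitochondrial ribosome translates the few mRNAs of the mitochondrial genome, all of which encode subunits of the oxidative phosphorylation complexes. Its rRNAs are transcribed inside the organelle, but every one of its proteins is encoded in the nucleus, translated on cytosolic ribosomes and imported. Some of these proteins descend from bacterial ribosomal proteins and others were acquired by the mitochondrial ribosome during evolution. STAU1 is a double-stranded RNA-binding protein that acts in mRNA transport, translation and decay, and the series asked how its knockdown alters the A549 transcriptome.

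STAU1 was measured first because it checks the labels. Its level was 120, 125 and 117 CPM (counts scaled to a common library size by the trimmed mean of M-values) in the control libraries and 16.02, 15.7 and 14.6 CPM in the knockdown libraries. The groups did not overlap, and the log2 fold change, given throughout as knockdown minus control, was -2.97 with a standard error (SE) of 0.04. The libraries held between 30354219 and 35431441 counts each. Every member had at least 41 counts in every library. The epithelial and A549 markers fixed for the cell line were all expressed, with summed levels of 21896 to 22117 CPM in controls and 17742 to 18360 CPM in knockdown libraries. Of these 9 markers 7 were lower, including KRT7 at -0.60, and 2 were higher, CDH1 at 0.50 and EPCAM at 0.22. Of 9 alveolar type II markers, SFTPA1 and SFTPB had 0 counts in all knockdown libraries against 141 to 212 and 50 to 103 counts in controls, SFTPA2 fell from a mean of 6.65 CPM to 0 or 1 count per library, and the defining markers SFTPC, NKX2-1 and LAMP3 were too low to test in either group. ABCA3, which went from 17.6 to 19.1 CPM and held most of the knockdown sum, SFTPD (0.17) and NAPSA (-0.01) were not called. The list summed to 34.4 to 38.4 CPM in controls and 22.7 to 24.8 CPM in knockdown libraries. Of 10 markers of blood, endothelial, stromal and liver cells, 8 were listed and 4 were tested. LUM rose from 6.05 to 9.91 CPM and CDH5 from 0.802 to 1.64 CPM, and the 8 summed to 8.04 to 9.02 CPM in controls and 12.8 to 14.4 CPM in knockdown libraries. The part of these shifts in the results below was not tested.

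Promoter sequences are shown for 5 members on which the later results turn: MRPL52, MRPL58 and MRPS22, which are among the largest falls, MRPL46, whose start lies beside that of another member, and MRPS34, which was not called. They were chosen after their values were seen. Each run is 150 bases of RefSeq sequence on GRCh38.p14, 5′ to 3′ on the gene's own strand, from 120 bases before the annotated start to 30 bases after it. Capitals mark the ETS-family core CCGGAAG, the YY1 motif AAGATGGCG and the NRF1 motif GCGCNTGCG, each searched on both strands, so that CTTCCGG is the ETS core on the other strand. GABP, an ETS factor, NRF1 and YY1 are known regulators of nuclear genes for mitochondrial proteins. The windows are chr14:22829767-22829916, plus strand, chr17:75012550-75012699, plus strand, chr3:139343874-139344023, plus strand, chr15:88467359-88467508, minus strand, and chr16:1773105-1773254, minus strand.
MRPL52: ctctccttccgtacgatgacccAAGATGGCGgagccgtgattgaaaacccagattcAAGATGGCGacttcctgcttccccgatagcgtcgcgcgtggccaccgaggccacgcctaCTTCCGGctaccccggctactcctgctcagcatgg
MRPL58: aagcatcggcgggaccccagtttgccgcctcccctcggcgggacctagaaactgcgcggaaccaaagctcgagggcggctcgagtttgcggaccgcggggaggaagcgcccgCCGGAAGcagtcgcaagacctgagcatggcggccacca
MRPS22: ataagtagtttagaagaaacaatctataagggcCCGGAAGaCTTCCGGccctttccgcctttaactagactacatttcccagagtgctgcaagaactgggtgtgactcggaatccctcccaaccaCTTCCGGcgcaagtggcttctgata
MRPL46: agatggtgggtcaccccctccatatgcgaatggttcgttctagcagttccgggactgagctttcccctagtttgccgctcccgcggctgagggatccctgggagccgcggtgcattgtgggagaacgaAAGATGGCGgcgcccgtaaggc
MRPS34: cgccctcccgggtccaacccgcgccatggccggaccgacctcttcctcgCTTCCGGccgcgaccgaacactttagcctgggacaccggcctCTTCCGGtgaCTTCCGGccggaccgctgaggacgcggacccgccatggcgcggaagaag
The MRPL52 window held 2 YY1 motifs and 1 ETS core, and the MRPS22 and MRPS34 windows held 3 ETS cores each. MRPS22 fell and MRPS34 was not called, and the difference between them was not tested. The MRPL46 window held 1 YY1 motif and also covers the annotated start of MRPS11 at position 88467453 on the plus strand.

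Across the family, RefSeq promoters of 300 bases (250 before the start and 50 after it) could be matched by symbol for 69 of the 78 members. The ETS core was in 29 of them, or 42.0%, against 18.2% of the promoters of 11490 tested genes and 10.7% of all 27305 promoters. The YY1 motif was in 13, or 18.8%, against 3.71% and 1.85%. The NRF1 motif was in 11, or 15.9%, against 14.3% and 8.05%. The SP1 motif GGGCGG was in 60.9% of the members' promoters, against 68.7% of those of tested genes, and TATAAA was in 2.9% against 5.92%. Of the 29 members with an ETS core 25 were called lower, with a median log2 fold change of -0.22. Of the 40 without it 28 were called lower, with a median of -0.18. For the YY1 motif, 9 of 13 members with it and 44 of 56 without it were called lower, and both medians were -0.22. For the NRF1 motif, 7 of 11 with it (median -0.13) and 46 of 58 without it (median -0.22) were called lower. These splits were not tested, and a match is a description of letters in the window.

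Most mitochondrial ribosomal protein mRNAs were lower in the knockdown libraries, by a small amount. Of the 78 members 60 were called lower, or 76.9%, 0 were called higher and 18 were not called, by edgeR's quasi-likelihood test with a Benjamini-Hochberg adjusted p under 0.05 over all tested genes. Among all tested genes 21.9% were called lower and 22.2% higher. Members are well-expressed genes, and among 5706 protein-coding genes within the 5th to 95th percentile of the members' mean level 32.3% were called lower and 29.2% higher. The members' median log2 fold change was -0.22, against -0.01 in those level-limited genes and -0.0002 over all tested genes. The estimates were below 0 for 73 of the 78. Fold changes ranged from -0.53 for MRPL39 to 0.11 for MRPS14, with SEs from 0.0245 to 0.183. No called fall reached 1.5-fold (0 of 60). Among the 18 not called, 4 had an unadjusted p under 0.05. In bulk RNA, fewer cells of a type and less RNA per cell cannot be told apart.

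The control and knockdown libraries did not overlap for 62 members, all 62 lower in the knockdown, and overlapped for 16. Over all tested genes, 25.5% did not overlap with lower values and 25.8% with higher values. The summed level of the 78 members was 5058, 5071 and 5030 CPM in the control libraries and 4498, 4368 and 4493 CPM in the knockdown libraries. Every knockdown library was below every control, and the mean was lower by 11.9% (5053 ± 20.8 against 4453 ± 73.8 CPM, SD, n = 3 each). As a share of all counts the members took 0.492% ± 0.00314 in controls and 0.457% ± 0.00711 in knockdown libraries (SD, n = 3 each). In the deposited FPKM (fragments scaled by gene length and sequencing depth), the sums were 1967, 1964 and 1974 in controls and 1847, 1805 and 1927 in knockdown libraries, and the mean was lower by 5.54%.

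The scale of the fall depended on the scaling. Without scaling beyond the total count, the median over all genes moved from -0.0002 to 0.08, the members' median was -0.14, and 47 members were called lower and 5 higher. On log2(FPKM + 1) with limma the members' median was -0.10, the median of all genes was 0.05, and 31 members were called lower and 6 higher. The members' median lay below that of all genes by 0.152 to 0.219 in all 21 settings tried. Of the 78 members, 31 were called lower in every setting and 47 in every setting that used counts.

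**Figure D1:**
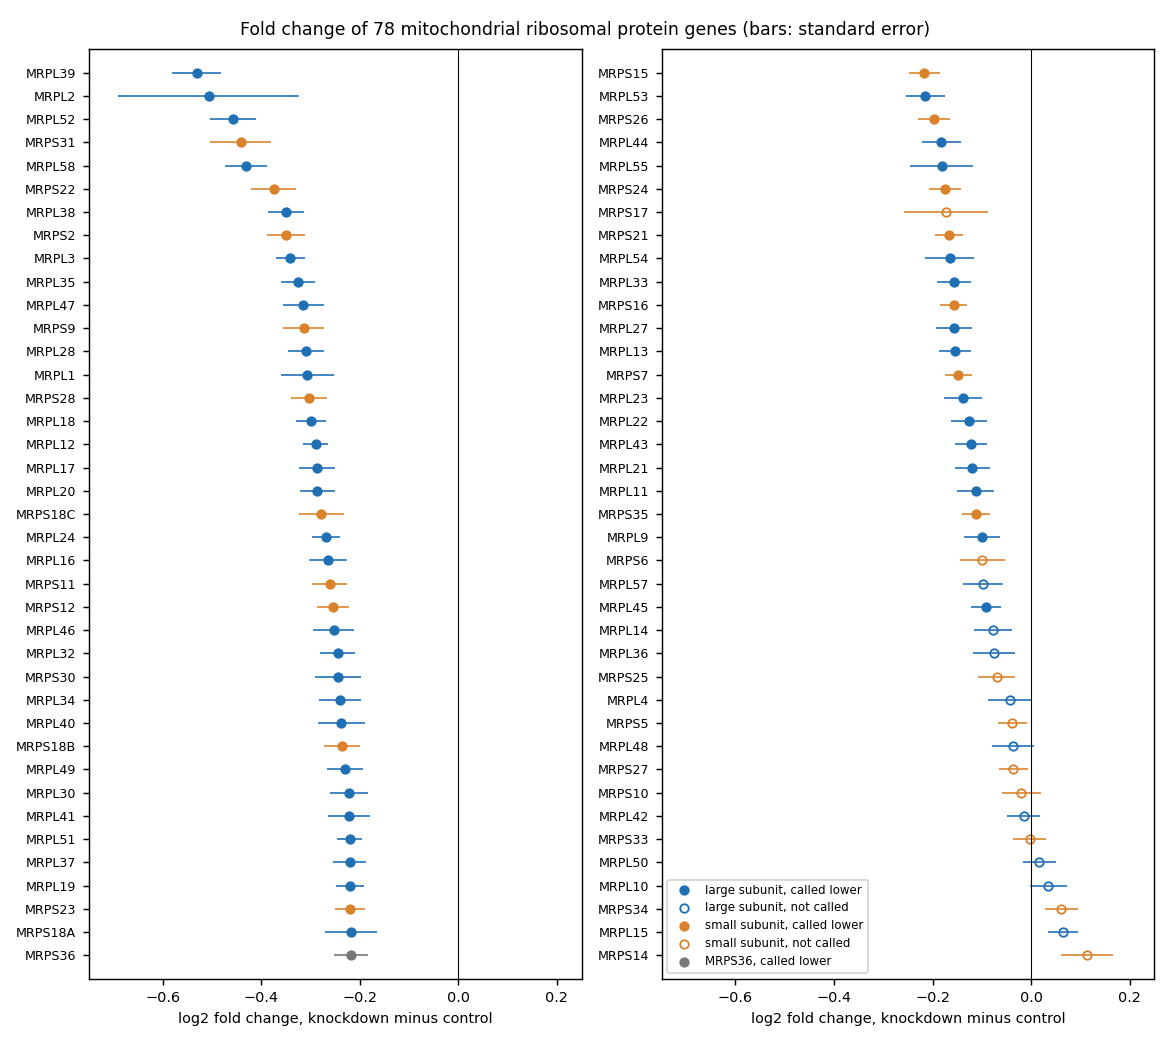
Log2 fold change (x axis, knockdown minus control) of each of the 78 members (y axis, ordered by fold change over both panels) with its SE from edgeR; filled points were called lower and open points were not called. The 60 called members all lie left of 0, from MRPL39 at -0.53, and 5 open points lie right of 0, up to MRPS14 at 0.11.

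The large subunit joins amino acids into the peptide chain and holds the exit tunnel. It has 51 members here, counting MRPS18A and MRPS30, which structures place in the large subunit despite their names. Of these 42 were called lower and 0 higher, with a median of -0.22, and their summed level fell from 3133 ± 18.6 to 2731 ± 47.5 CPM (SD, n = 3 each), or by 12.8%. Proteins with a bacterial counterpart made up 30 of the 51, with 25 called lower. The mitochondria-specific proteins made up 21, with 17 called lower. Both classes had a median of -0.22.

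MRPL39, a mitochondria-specific protein on the surface of the large subunit, had the largest fall in the family. It lies at chr21:25585656-25607517 on the minus strand (GRCh38, GENCODE 29; ENSG00000154719.14). Its level was 30.8, 30.0003 and 29.5 CPM in controls and 21.8, 20.0 and 20.7 CPM in knockdown libraries. The groups were far apart compared with their spread, and the log2 fold change was -0.53 (SE 0.05, edgeR adjusted p = 6.3e-11), a fall of 30.8%.

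MRPL52, another mitochondria-specific protein, is encoded at chr14:22829879-22835037 on the plus strand. It had 35.6, 39.4 and 38.0 CPM in controls and 28.9, 26.5 and 27.0 CPM in knockdown libraries. All 3 knockdown values lay below the lowest control, with a log2 fold change of -0.46 (SE 0.05, edgeR adjusted p = 6.1e-10). MRPL58 is a ribosome component that also hydrolyses peptidyl-tRNA and can rescue stalled ribosomes. Its values were 50.8, 48.6 and 49.3 CPM in controls against 39.1, 34.5 and 36.7 CPM, with no overlap and a log2 fold change of -0.43 (SE 0.04, edgeR adjusted p = 1.7e-10). The gene lies at chr17:75012670-75021261 on the plus strand. MRPL38, also mitochondria-specific, had 64.9, 63.0 and 65.5 CPM in controls and 50.7, 48.2 and 52.7 CPM in knockdown libraries. Its groups did not overlap either, and the log2 fold change was -0.35 (SE 0.04). In GENCODE 29, 37.5% of the MRPL38 exon length is shared with a readthrough gene on the same strand, so its counts may be split.

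Among the large-subunit proteins with bacterial counterparts, MRPL2, which sits near the peptidyl transferase centre, had the lowest level and the largest SE of the family. It had 1.97, 1.93 and 2.57 CPM in controls and 1.66, 1.28 and 1.61 CPM in knockdown libraries. The groups did not overlap, but the controls spread over a wider range than the gap between the groups, and the log2 fold change was -0.51 (SE 0.18, edgeR adjusted p = 0.024). Without control replicate 3 it was -0.36 (adjusted p = 0.18) and without knockdown replicate 2 it was -0.40 (adjusted p = 0.11), so the call rests on single libraries. MRPL2 also shares 14.7% of its exon length with KLC4. MRPL9, another core protein, had a small fall from 52.5 to 49.0 CPM, -0.10 on the log2 scale (SE 0.04, edgeR adjusted p = 0.025). The MRPL9 call was lost in 10 of the other settings, among them DESeq2 (adjusted p = 0.083) and without control replicate 1 (0.054), control replicate 3 (0.11) or knockdown replicate 1 (0.12).

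MRPL12 forms the flexible stalk of the large subunit, where translation factors bind. It had 144, 146 and 147 CPM in controls and 119, 119 and 120.02 CPM in knockdown libraries. The spread was small in both groups, and the log2 fold change was -0.29 (SE 0.03, edgeR adjusted p = 1.5e-11). As 68.2% of its exon length in GENCODE 29 also belongs to a second gene on the same strand, AC139530.2, its count depends on how shared reads were assigned. MRPL10, the protein that anchors this stalk, was not called: it had 57.0, 57.5 and 53.3 CPM in controls against 55.6, 58.3 and 57.9 CPM. The groups overlapped and the log2 fold change was 0.04 (SE 0.04, edgeR adjusted p = 0.47). The difference between the 2 stalk proteins was not tested.

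MRPL51 and MRPL12 had the highest levels per gene length in the family. MRPL51, a mitochondria-specific protein, had 199.6, 208 and 204 CPM in controls and 177, 171 and 177 CPM in knockdown libraries. No knockdown value reached a control value, with a log2 fold change of -0.22 (SE 0.02, edgeR adjusted p = 2.8e-09). MRPL33, a counterpart of the bacterial protein L33, had 131, 133 and 124 CPM in controls and 121, 109 and 118 CPM in knockdown libraries. The gap was narrow, and the log2 fold change was -0.16 (SE 0.03, edgeR adjusted p = 0.00082). The MRPL33 call was lost with total-count scaling (-0.08, adjusted p = 0.070) and on log2(FPKM + 1) (-0.05, adjusted p = 0.44). MRPL44 carries a ribonuclease III-like fold and is needed for assembly of the large subunit. Its level went from 48.6 ± 1.99 to 42.8 ± 1.71 CPM (SD, n = 3 each), a log2 fold change of -0.18 (SE 0.04, edgeR adjusted p = 0.00034). MRPS30 went from 39.1 ± 2.43 to 33.0 ± 1.41 CPM (SD, n = 3 each), a log2 fold change of -0.24 (SE 0.05). On log2(FPKM + 1), MRPL44 (adjusted p = 0.27) and MRPS30 (adjusted p = 0.094) were not called.

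Of the large subunit, 9 members were not called: MRPL4, MRPL10, MRPL14, MRPL15, MRPL36, MRPL42, MRPL48, MRPL50 and MRPL57. MRPL15, a core protein with a bacterial counterpart, had 89.4, 86.7 and 83.0 CPM in controls and 89.3, 90.1 and 91.5 CPM in knockdown libraries. The groups overlapped by 1 library, and the log2 fold change was 0.06 (SE 0.03, edgeR adjusted p = 0.093). Without control replicate 1 MRPL15 was called higher at 0.09 (adjusted p = 0.037). MRPL42, a mitochondria-specific protein, had 63.6, 65.2 and 65.3 CPM in controls against 64.9, 62.1 and 65.1 CPM. Its groups were intermixed, with a log2 fold change of -0.01 (SE 0.03). MRPL42 was called lower with an offset for gene length (-0.14, adjusted p = 0.00078), while its estimate was above 0 with total-count scaling and on FPKM, where it was not called.

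The small subunit binds the mRNA and decodes it. Of its 26 members 17 were called lower, 0 higher and 9 were not called, with a median of -0.17. The summed level went from 1856 ± 13.6 to 1667 ± 26.4 CPM (SD, n = 3 each), lower by 10.2%. Of 16 proteins with a bacterial counterpart 11 were called lower, and of 10 mitochondria-specific proteins 6. The difference in these shares from the large subunit was not tested.

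MRPS31, a mitochondria-specific protein of the small subunit, had 18.8, 18.0 and 19.9 CPM in controls and 14.1, 14.6 and 13.2 CPM in knockdown libraries. The groups did not overlap, and the log2 fold change was -0.44 (SE 0.06, edgeR adjusted p = 3.2e-07). Pseudogene copies of MRPS31 are listed in the table, so its reads may be split among them; the copy MRPS31P5 had a log2 fold change of 0.03 and was not called. MRPS22, also mitochondria-specific, had 34.0, 33.3 and 35.6 CPM in controls against 25.9, 26.7 and 26.8 CPM. The knockdown values were tightly grouped below all controls, with a log2 fold change of -0.37 (SE 0.05, edgeR adjusted p = 2.0e-08). MRPS2, a core protein with a bacterial counterpart, had 54.8, 53.6 and 53.8 CPM in controls and 40.8, 44.4 and 42.2 CPM in knockdown libraries. It fell by 21.5%, a log2 fold change of -0.35 (SE 0.04, edgeR adjusted p = 2.1e-09).

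MRPS12, which sits at the decoding centre, had 108, 100.2 and 106 CPM in controls and 90.2, 83.6 and 89.9 CPM in knockdown libraries. The groups did not overlap, and the log2 fold change was -0.25 (SE 0.03, edgeR adjusted p = 5.8e-08). MRPS17, a core protein of low level, had 10.8, 9.61 and 10.3 CPM in controls and 10.1, 7.74 and 9.46 CPM in knockdown libraries. Its groups overlapped, and the log2 fold change of -0.17 (SE 0.09, edgeR adjusted p = 0.10) was not called.

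MRPS14 and MRPS34 had the highest estimates of the small subunit. MRPS14, a core protein, had 21.5, 24.2 and 22.7 CPM in controls and 24.8, 25.2 and 24.2 CPM in knockdown libraries. The groups overlapped by 1 library, and the log2 fold change was 0.11 (SE 0.05, edgeR adjusted p = 0.077). Without control replicate 2 MRPS14 was called higher at 0.16 (adjusted p = 0.031). MRPS34, a mitochondria-specific protein, had 85.2, 86.1 and 89.0 CPM in controls and 92.0, 85.2 and 94.2 CPM in knockdown libraries. The second knockdown library lay at the level of the lowest control and the others above all controls, with a log2 fold change of 0.06 (SE 0.03, edgeR adjusted p = 0.14). Without knockdown replicate 2 MRPS34 was called higher at 0.10 (adjusted p = 0.0097). Both were called higher under total-count scaling and on FPKM values. The other 7 members of the small subunit that were not called were MRPS5, MRPS6, MRPS10, MRPS17, MRPS25, MRPS27 and MRPS33, and none of their estimates was above 0.

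**Figure D2:**
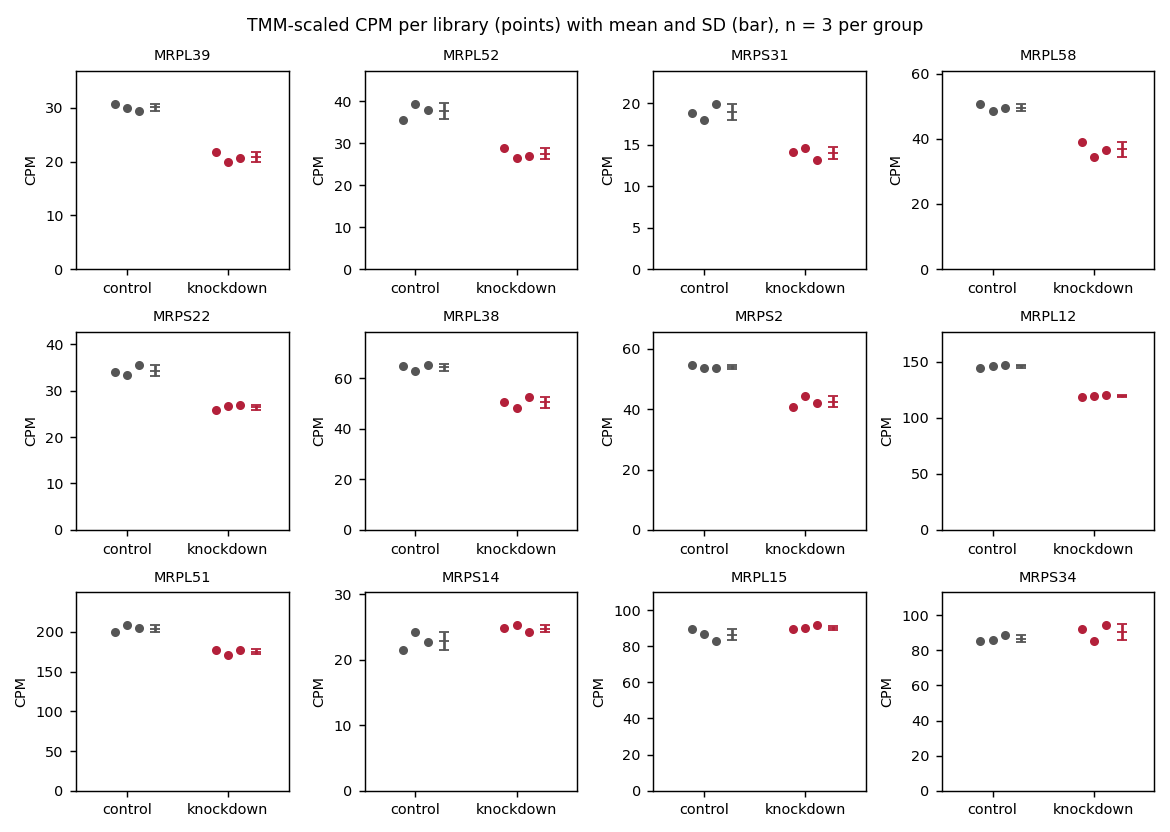
TMM-scaled CPM (y axis, starting at 0) of 12 members in each of the 3 control (grey) and 3 knockdown (red) libraries, with the mean and SD beside the points. In MRPL39, MRPL52, MRPS31, MRPL58, MRPS22, MRPL38, MRPS2, MRPL12 and MRPL51 all knockdown points lie below all control points. In MRPL15, MRPS14 and MRPS34 the groups overlap.

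Human cells carry a trio of paralogues of bacterial protein S18, of which MRPS18A is built into the large subunit and MRPS18B and MRPS18C into the small one. In the classes above, MRPS18A and MRPS18B were counted as mitochondria-specific, and only MRPS18C among the proteins with a bacterial counterpart. All of them were called lower. MRPS18A went from 27.2 ± 1.22 to 23.4 ± 1.55 CPM (SD, n = 3 each), a log2 fold change of -0.22 (SE 0.05). MRPS18B went from 64.4 ± 1.75 to 54.7 ± 2.63 CPM, a log2 fold change of -0.24 (SE 0.04). MRPS18C went from 36.8 ± 2.20 to 30.4 ± 0.66 CPM, a log2 fold change of -0.28 (SE 0.05). On log2(FPKM + 1), MRPS18A (-0.10, adjusted p = 0.16) and MRPS18B (-0.12, adjusted p = 0.050) were not called, and MRPS18C was called lower. GENCODE 29 gives 47.0% of the MRPS18A exon length and 40.2% of that of MRPS18C to genes on the opposite strand, RSPH9 and ABRAXAS1. The library kit was directional, but the sources used here do not say whether the counting used strand. MRPS36 carries a ribosomal name but is a subunit of the oxoglutarate dehydrogenase complex. Its level was 62.4, 64.97 and 63.6 CPM in controls and 53.8, 53.5 and 56.7 CPM in knockdown libraries, with no overlap and a log2 fold change of -0.22 (SE 0.04, edgeR adjusted p = 3.6e-06); on log2(FPKM + 1) MRPS36 was not called (-0.11, adjusted p = 0.062).

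Although the proteins are built into 1 particle, their mRNA levels differed widely. On the deposited FPKM scale the members' control means ran from 0.81 for MRPL2 to 119.99 for MRPL51, a ratio of 148. The low end of this ratio rests on MRPL2 alone, which had a mean of 2.16 CPM in controls, and the next lowest member was at 3.23 FPKM. The middle of the family was narrower: the median was 18.2 FPKM, and the quartiles of 9.66 and 30.4 FPKM lay 3.15-fold apart. MRPL51 (119.99 ± 2.24 FPKM, SD, n = 3) and MRPL12 (118 ± 1.56) were close. MRPL51 was the higher in each control library, at 117.45 against 116.91, 121.71 against 117.33 and 120.8 against 119.79 FPKM. MRPL51 and MRPL12 were followed by MRPL33 (69.0 ± 2.16) and MRPS34 (64.9 ± 1.72). MRPL33 was the higher in control libraries 1 and 2, and MRPS34 in control library 3 (66.85 against 66.55 FPKM). These differences were not tested. At the low end, MRPL2 (0.81 ± 0.139) was followed by MRPL42 (3.23 ± 0.0557), MRPS17 (3.99 ± 0.249) and MRPS30 (5.16 ± 0.297). The FPKM depend on the gene length the authors used. MRPL42 had a mean of 64.7 CPM in controls and an annotated exon length of 16393 bases. Its place at the low end therefore reflects length and not few reads.

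Over the 78 members, the log2 fold change and control FPKM had a Pearson r of -0.01 and a Spearman rho of -0.03. With mean log2 CPM, r was 0.31 and rho 0.21. For exon length r was 0.20 and rho 0.12, and among 5697 level-limited protein-coding genes the rho with exon length was 0.24. For GC content of the gene's longest annotated transcript r was -0.0042 and rho 0.0075. These are correlations across genes within the same libraries, given as a description.

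**Figure D3:**
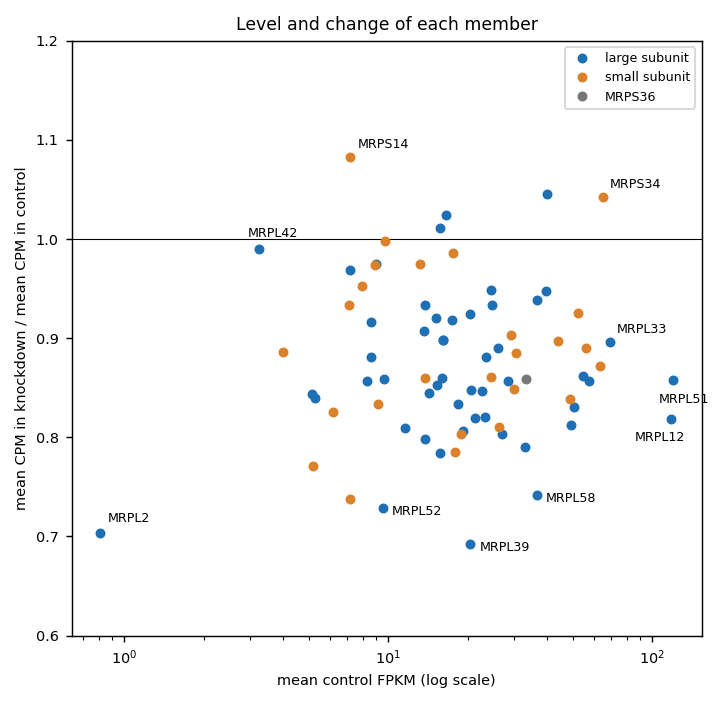
Mean control FPKM of each member (x axis, log scale) against the ratio of its mean CPM in knockdown to that in control libraries (y axis, on which 1 is no change), coloured by subunit. Members from MRPL2 at 0.81 FPKM to MRPL51 at 119.99 FPKM lie mostly below 1, with MRPL39 lowest and MRPS14 highest.

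Exon bases were shared with another GENCODE 29 gene in 41 members, on the opposite strand in 29 of them. Of these 41 members 33 were called lower (median -0.22), and of the 37 members without shared exon bases 27 were called lower (median -0.20).

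Many nuclear genes for mitochondrial proteins start head to head with a neighbour. By GENCODE 29, 23 members had a gene on the opposite strand whose start lay within 1000 bases upstream, or up to 200 bases inside the member. This gave 19 pairs with a tested protein-coding partner. MRPL32 is counted with PSMA2, which was not called, and again with the overlapping row RP11-111K18.1, which was lower. Both genes were called lower in 6 pairs, and the member was lower and the partner higher in 2. In 6 the member was lower and the partner not called, and in 5 the member was not called. Of the partners in these last 5 pairs, NDUFS6 (-0.15) and SKA3 (-0.43) were lower and ZNF189 (0.20) was higher. LRRC46 and EME2 were not called. Among the level-limited protein-coding genes 32.3% were called lower and 29.2% higher, against 21.9% and 22.2% of all tested genes. Whether partners of the members departed from these shares was not tested.

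MRPL46 and MRPS11, a large-subunit and a small-subunit protein, form such a pair, with starts 34 bases apart on chromosome 15. MRPL46 had 42.7, 40.6 and 40.3 CPM in controls and 35.3, 34.3 and 34.1 CPM in knockdown libraries. MRPS11 had 61.8, 61.9 and 64.7 CPM against 51.7, 51.8 and 53.6 CPM. Neither gene's groups overlapped, and the log2 fold changes were -0.25 (SE 0.04) and -0.26 (SE 0.04). TCP1, a subunit of the cytosolic chaperonin, lies beside MRPL18, and both were lower, TCP1 at -0.41 (SE 0.02) and MRPL18 at -0.30 (SE 0.03). TWNK, the mitochondrial DNA helicase, was lower at -0.24 (SE 0.05) beside MRPL43 at -0.12, whose call was lost with total-count scaling (-0.05, adjusted p = 0.26). MRPL43 shares 32.7% of its exon length with SEMA4G on the opposite strand.

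In the other direction, SLC7A7, an amino acid transporter subunit, was higher, with 122 CPM in controls and 162 CPM in knockdown libraries (0.40 on the log2 scale, SE 0.03, edgeR adjusted p = 3.2e-15) beside MRPL52, which fell. NDUFB5, a subunit of respiratory complex I, rose by 0.18 (SE 0.03, edgeR adjusted p = 2.9e-05) beside MRPL47, which fell by 0.31 on the log2 scale. Neighbours moved apart in these pairs and together in those above. For MRPL32, the row named PSMA2 held only 0.780 CPM in controls while an overlapping row, RP11-111K18.1, held 215 CPM and was lower at -0.24, so the counts of that neighbour cannot be assigned to 1 gene.

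**Figure D4:**
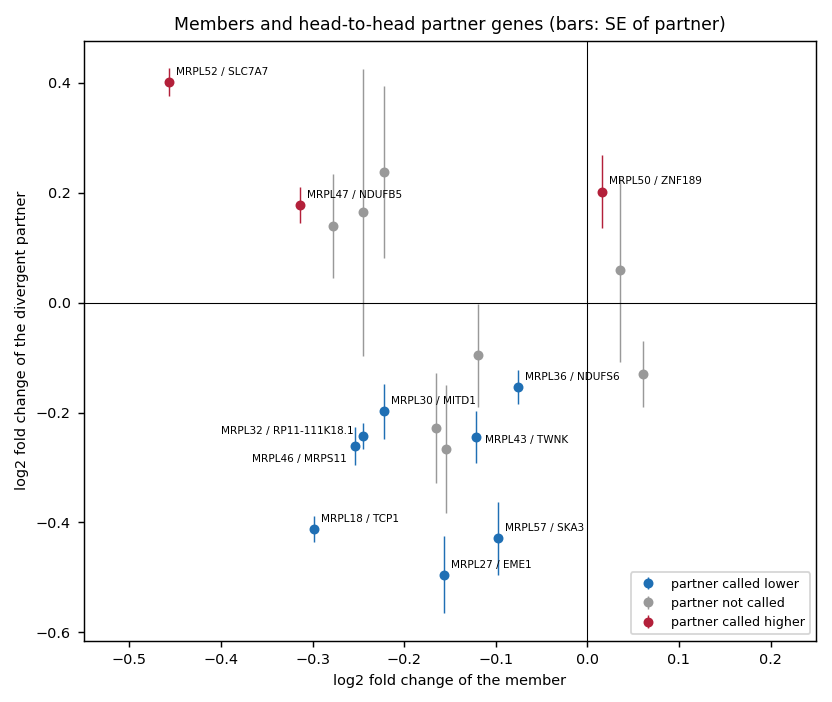
Log2 fold change of a member (x axis) against that of its head-to-head protein-coding partner (y axis, with the partner's SE) for 19 pairs, coloured by the partner's call. MRPL32 is plotted with PSMA2 and again with RP11-111K18.1. MRPL52 / SLC7A7 and MRPL47 / NDUFB5 lie in the upper left with the partner higher, and MRPL46 / MRPS11 and MRPL18 / TCP1 in the lower left with both lower.

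A few ribosome proteins have other symbols. Of 5 such genes, 3 were lower, 0 higher and 2 not called, with a median of -0.11. AURKAIP1, a small-subunit protein, had 61.7, 63.3 and 67.8 CPM in controls and 51.5, 47.8 and 53.0 CPM in knockdown libraries, and its log2 fold change was -0.34 (SE 0.04). GADD45GIP1, of the large subunit, was at -0.21 and PTCD3, of the small subunit, at -0.11. The PTCD3 log2 fold change was not called with total-count scaling (-0.03, adjusted p = 0.42) or on FPKM. DAP3, a small-subunit GTP-binding protein, and CHCHD1 were at -0.05 and -0.06 and were not called.

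The 29 tested genes of ribosome assembly and rRNA modification moved in both directions: 13 were lower, 4 higher and 12 not called, with a median of -0.12. C1QBP, a matrix protein needed for mitochondrial translation, fell from 323 to 252 CPM (-0.36, SE 0.02), MTERF3 from 25.7 to 19.4 CPM (-0.40, SE 0.05) and NDUFAB1, the acyl carrier protein, from 106 to 90.3 CPM (-0.23, SE 0.03). The 4 that rose were RCC1L at 0.16, LETMD1 at 0.16, RPUSD4 at 0.17 and YBEY at 0.14. Of 16 translation factors 5 were lower, 0 higher and 11 not called, with a median of -0.06. TUFM, the elongation factor that brings aminoacyl-tRNA to the ribosome, was at -0.21 (SE 0.02). SLIRP, which stabilises mitochondrial mRNAs, was at -0.30 (SE 0.03), and TACO1, an activator of COX1 translation, at -0.33 (SE 0.04). Of 19 genes that charge mitochondrial tRNAs 8 were lower, those with the smallest adjusted p being QRSL1 (-0.29), CARS2 (-0.23) and LARS2 (-0.28), and 1, WARS2, was higher at 0.20. Side by side, the shares called lower were 76.9% of members, 44.8% of assembly genes, 31.2% of translation factors and 42.1% of tRNA charging genes. Among lists described below they were 91.4% of cytosolic ribosomal proteins and 92.3% of mRNAs of the mitochondrial genome. They were 70.8% of transcription and RNA processing genes and 64.3% of import genes. A high share was therefore not particular to the members. The background was 21.9% of all tested genes and 32.3% of the level-limited protein-coding genes. The share of translation factors was thus near the background, and the differences between lists were not tested. All these shares are from TMM-scaled counts. On FPKM the related lists had fewer genes called lower and more called higher, as given in the closing part.

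For the counts that follow, 21.9% of all tested genes and 32.3% of the level-limited protein-coding genes were called lower. Genes of mitochondrial transcription and RNA processing were lower in 17 of 24 (70.8%), with 0 higher and a median of -0.15. SSBP1, the mitochondrial single-stranded DNA-binding protein, was at -0.31, REXO2, an oligoribonuclease, at -0.45, and PNPT1, the polynucleotide phosphorylase, at -0.35. Of 28 protein import genes 18 (64.3%) were lower and 2 higher, TOMM22 at 0.18 and TIMM10B at 0.12, with a median of -0.14. TOMM40, the import channel of the outer membrane, fell from 152 to 115 CPM (-0.39, SE 0.03), and TIMM50 and TIMM10 were at -0.36 and -0.37. The 13 mRNAs of the mitochondrial genome itself, which this ribosome translates, were lower in 12 (92.3%), with a median of -0.27. MT-ND5 at -0.33 was not called. MT-CYB went from 8965 ± 52.8 to 7311 ± 109.9 CPM (SD, n = 3 each). Of the rRNAs, MT-RNR1 of the small subunit was lower at -0.29 (SE 0.02) and MT-RNR2 of the large subunit was not called at -0.08 (SE 0.05). As mRNA was captured on beads, rRNA levels in these libraries depend on that capture. The mRNAs for proteins of the cytosolic ribosome were lower in 74 of 81 (91.4%), with 1 higher, and their median was -0.18.

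Of 9 transcriptional regulators of mitochondrial genes, 2 were higher, 2 lower and 5 not called, or 22.2% in each direction, which is the share over all tested genes (22.2% higher and 21.9% lower). PPARGC1A, a coactivator of mitochondrial biogenesis, had 8.09, 8.43 and 7.03 CPM in controls and 13.0, 12.3 and 12.04 CPM in knockdown libraries. Its knockdown values all lay above the controls, with a log2 fold change of 0.66 (SE 0.08, edgeR adjusted p = 1.3e-08). The MYC log2 fold change was 0.10 (SE 0.04, edgeR adjusted p = 0.021), but the call was lost with DESeq2 (adjusted p = 0.077) and without control replicate 1 (0.085), control replicate 3 (0.10) or knockdown replicate 3 (0.12). GABPB1, the partner subunit of GABP, was lower at -0.22 (SE 0.06), and NRF1 at -0.16 (SE 0.06, edgeR adjusted p = 0.043). GABPA, the subunit that binds the ETS core, was not called at -0.02, nor was YY1 at -0.06.

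Of the 20 rows with a member's symbol that are not protein-coding, 5 were tested. MRPS9-AS1 was lower at -0.63 (SE 0.21, edgeR adjusted p = 0.015), while MRPL20-DT (-0.25), MRPL20-AS1 (0.01), MRPL45P2 (0.04) and MRPS31P5 (0.03) were not called. MRPS9 itself was lower at -0.31 (SE 0.04), and the overlap of an antisense row with its gene cannot be separated without stranded counting.

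**Figure D5:**
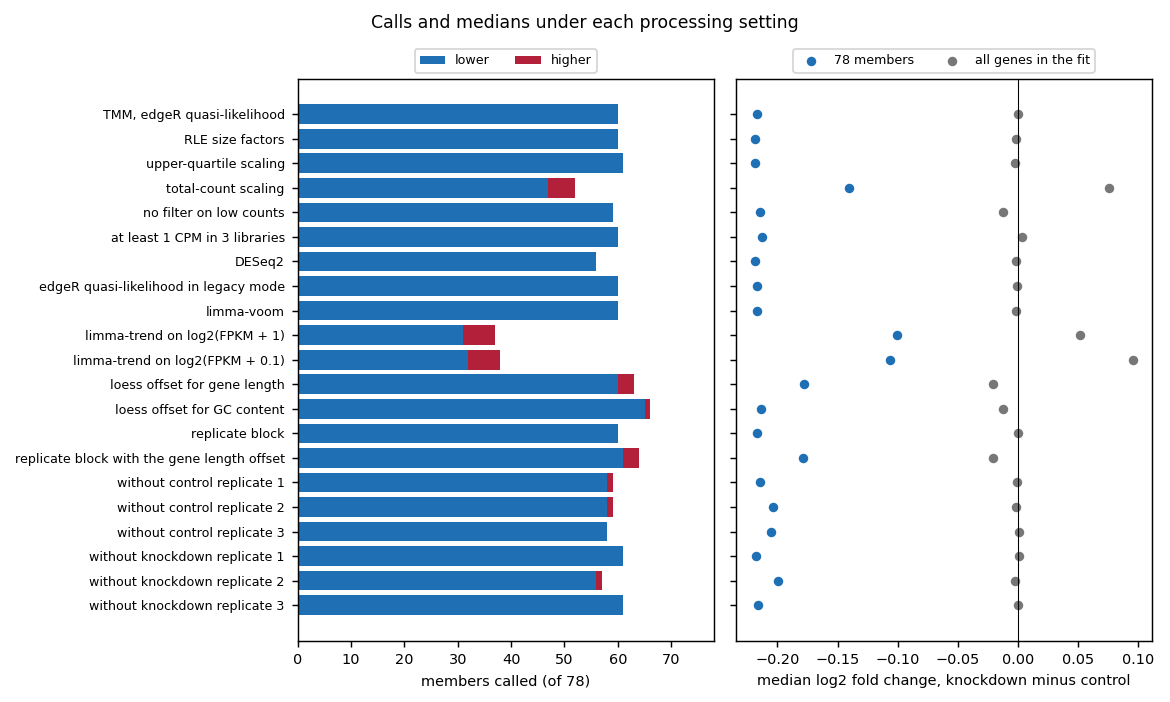
Left, number of the 78 members called lower (blue) and higher (red) under each of 21 settings; right, median log2 fold change of the members and of all genes in the same fit. Total-count scaling and the FPKM fits moved both medians to the right, and the members' median stayed below that of all genes in each setting.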

How the data were processed

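The authors deposited read counts per gene, whole numbers with 1 column per library, and FPKM values for the same libraries. HISAT2, DESeq2 and the build GRCh38 are named in the submitters' processing notes; the sources used here do not give the counting tool, its annotation or its use of strand. The labels' protocols describe directional libraries from bead-captured mRNA, read as pairs of 150 nt.

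Counts were tested with edgeR 4.0.16 in R 4.3.3: filterByExpr with a minimum count of 10, TMM scaling, robust quasi-likelihood fit of group, and Benjamini-Hochberg adjustment over all 17089 tested genes, called at 0.05. SEs were derived from the F statistic. The test was checked on simulated data. CPM are TMM-scaled. Coordinates, exon lengths and overlaps come from GENCODE 29 (29556 of 30493 IDs matched, and all 78 members); promoters come from RefSeq (GRCh38.p14). Libraries of 1 group differed by more than counting noise, with chi-square values per degree of freedom of 1.78 to 2.88. These values are summed over all genes, so genes with many reads can weigh most. MT-ND5, for example, had 116206 counts in control library 1 and 187936 in control library 3. The common dispersion, edgeR's measure of variation between libraries beyond counting, was 2.61% as a coefficient of variation. DESeq2 1.42.0, limma 3.58.1 and other scalings, filters, offsets and left-out libraries were alternatives.

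The members, lists and tests were chosen with earlier results of these data known. Genes named are STAU1, the 8 largest falls and rises among called members, the 4 highest and 4 lowest by control FPKM, members fixed by role, and the 3 smallest adjusted p in each related list; genes outside this rule were chosen after their values were seen. With 3 libraries per group an exact permutation test cannot go below p = 0.1, so none is given.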

Additional observations from a re-analysis of the deposited data

How the results depend on the processing

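Direction and side of the threshold held for the members' count called lower (60) with RLE, upper-quartile and 1-CPM settings, no filter, DESeq2, legacy mode, voom, both offsets and the replicate block; the range was 56 to 65. With total-count scaling, members called higher numbered 5 (3 large, 2 small subunit), the related lists 16, the median was -0.14 and the log2 ratio of the summed level -0.11, against -0.18 with TMM. On log2(FPKM + 1) the calls were 31 lower and 6 higher (large subunit 21 and 3, small subunit 10 and 3, related lists 38 and 21) with a median of -0.10. On log2(FPKM + 0.1) they were 32 and 6 (21 and 3; 11 and 3; 38 and 20) with a median of -0.11. The summed deposited FPKM gave -0.082. With the gene length offset, 3 members were higher (1 large, 2 small) and the median was -0.18, and the replicate block with that offset gave 3, 1, 2 and -0.18. The GC offset gave 1 higher, in the small subunit. DESeq2 called 4 genes of the related lists higher, against 9. The median of all genes turned to 0.076 with total-count scaling, 0.052 with FPKM + 1 and 0.096 with FPKM + 0.1. The MRPL42 log2 fold change turned to 0.062, 0.072 and 0.090 in these settings; with 1 library left out it ran from -0.029 to 0.00628, the latter without knockdown replicate 2. MRPL42 was called lower with the gene length offset (-0.14, adjusted p = 0.00078) and with the replicate block and that offset (-0.14, adjusted p = 0.00066). The cause of these changes was not tested.

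Leaving out 1 library at a time gave 56 to 61 members lower and 0 to 1 higher (large subunit higher 0 to 1, small subunit 0 to 1). The members' median was then -0.22 to -0.20. In these fits 70 to 77 genes of the related lists were lower and 4 to 9 higher. The members called higher in at least 1 setting were MRPL10, MRPL15, MRPL50, MRPS14, MRPS33 and MRPS34. MRPL2 lost its call with total-count scaling (adjusted p = 0.0539), DESeq2 (0.0921), both FPKM fits (0.0784 and 0.0766) and without control replicate 3 or knockdown replicate 2. The replicate block gave 60 lower and 0 higher and changed no member's call. Libraries of the same number correlated at 0.0368 to 0.146 in their deviations, 1 of 3 over 0.1. Of the controls 2 of 3, and of the knockdown libraries 3 of 3, correlated best with their own number. Whether libraries of the same number belong together was not tested, and the main fit did not pair them. MRPL2 had the fewest counts of any member, 41 to 82 per library.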
